A study of Mus musculus with 16 samples.

Results

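The regions described here are stretches of open chromatin whose signal was higher in every library of the MHC class II high fraction of medullary thymic epithelial cells (mTEChi) than in any library of the MHC class II low fraction (mTEClo). A region was a member when its lowest value in the 8 mTEChi libraries exceeded its highest value in the 8 mTEClo libraries, its mean over the mTEChi libraries was at least 20, and its lowest value over all 16 libraries was under 100. These conditions held for 11081 of 250313 regions, or 4.43%. With the sorts exchanged, the same conditions held for 4089 regions (1.63%), which are called mTEClo regions below. Because the deposited values themselves chose the members, the size of their mTEChi against mTEClo difference is given as a description and is not tested on these libraries.

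Medullary thymic epithelial cells (mTECs) display peptides of many tissue-restricted proteins to developing T cells, which serves to remove or redirect self-reactive ones. High surface MHC class II marks the mature stage, at which most Aire protein is found, while the low fraction holds immature cells among others. Aire is a nuclear protein that promotes transcription of many tissue-restricted genes in these cells, and Brg1 is an ATPase subunit of SWI/SNF complexes, which slide and evict nucleosomes. ATAC-seq reads open chromatin through the transposase Tn5, which inserts sequencing adapters where DNA is not covered by nucleosomes.

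The 16 libraries came from thymi of 4-week-old mice, all labelled C57BL/6, and formed 8 groups of 2. In the Aire line, Aire-/- and Aire+/+ cells were each sorted as mTEChi and mTEClo, and in the Brg1 line Brg1-/- and Brg1+/+ cells were sorted in the same way. Sorted cells lacked DAPI stain and CD45, carried EpCAM and UEA-1 ligand, and were low for Ly51, with 60000 cells per Tn5 reaction. The descriptions of the Brg1+/+ libraries begin with NOCRE, so Brg1 genotype and Cre may differ together and cannot be told apart. The labels name no Cre driver, and separate mice are not stated for the 2 libraries of any group, so each p-value rests on a spread between samples that may be technical. In bulk samples such as these, fewer cells with an open region and less signal per cell cannot be told apart.

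Every region was 500 bp long and had 1 normalized signal value per library, with no read count, so depth is unknown. Over all regions the median signal per library ranged from 8.51 to 19.8 while the 99th percentile lay between 213.7 and 217.3. Among the mTEChi libraries, the second Aire+/+ library had the lowest median correlation with the others, 0.543. The Brg1-/- mTEChi libraries were next, at 0.602 and 0.582, and the rest had 0.655 to 0.685. Libraries of the same group correlated at 0.540 in Aire+/+ mTEChi and at 0.596 in Brg1-/- mTEChi. Without the second Aire+/+ mTEChi library the conditions held for 12866 regions, of which 10996 were members. The files use the mm9 build and the gene table at hand another one, so regions are given by position, and genes, promoters and cell type markers at them were not analysed here.

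Typical members were moderately open in mTEChi and near the middle of all regions in mTEClo. Their mean signal had a median of 47.2 in mTEChi (quartiles 34.1 and 69.7) and of 9.54 in mTEClo (quartiles 6.71 and 15.7), against 16.1 in mTEChi and 11.1 in mTEClo over all regions. In mTEChi the median member ranked at the 86.6th percentile of all regions, and in mTEClo at the 41.9th. The signal in mTEClo was below the median region at 6571 members (59.3%). Of the 2504 regions with the highest mTEChi mean, the top 1%, 78 were members (3.12%, against 4.43% of all regions). The condition on the lowest library, which left out 77 regions that met the others, works against such strong regions. In the top 10% by mTEChi mean were 3975 members (35.9% of members). Only 394 members (3.56%) were in the top 10% of mTEClo.

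The ratio of the mTEChi mean to the mTEClo mean had a median of 4.62 (quartiles 3.46 and 6.21) and ran from 1.30 to 26.5. It was at least 2 at 10745 members (97.0%), at least 4 at 7021 (63.4%), at least 8 at 1200 (10.8%) and at least 16 at 25. Members with an mTEChi mean above 100 had smaller ratios than the others. The 6032 members with an mTEChi mean between 20 and 50 had a median ratio of 4.60, and the 3820 between 50 and 100 had 4.90. Ratios were lower at the 1128 members between 100 and 200, with a median of 3.81, and at the 101 members of 200 or more, with a median of 3.09. In those 101 members the mTEClo mean had a median of 73.9, so that the strongest members were also open in mTEClo.

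The space between the sorts was narrow for most members. The lowest mTEChi value was a median of 1.37 times the highest mTEClo value, it was at least 2 times that value at 2064 members (18.6%), and it was under 1.1 times at 2075 (18.7%). Just inside this condition lay a region with a lowest mTEChi value of 45.583 and a highest mTEClo value of 45.572, and just outside lay one on chromosome 3 from 97438209 to 97438708 with 78.708 and 78.709. The condition on the mTEChi mean was just met by a region on chromosome 15 from 79595725 to 79596224, with a mean of 20.0001, and just missed by one on chromosome 10 from 60543659 to 60544158, with 19.98. The condition on the lowest library was just met on chromosome 1 from 58052530 to 58053029, where it was 97.7, and just missed on chromosome 19 from 42244777 to 42245276, where it was 100.6. Of the 11628 regions whose sorts did not overlap in this direction, 470 were left out by a low mTEChi mean and 77 by a lowest library of 100 or more.

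**Figure D1:**
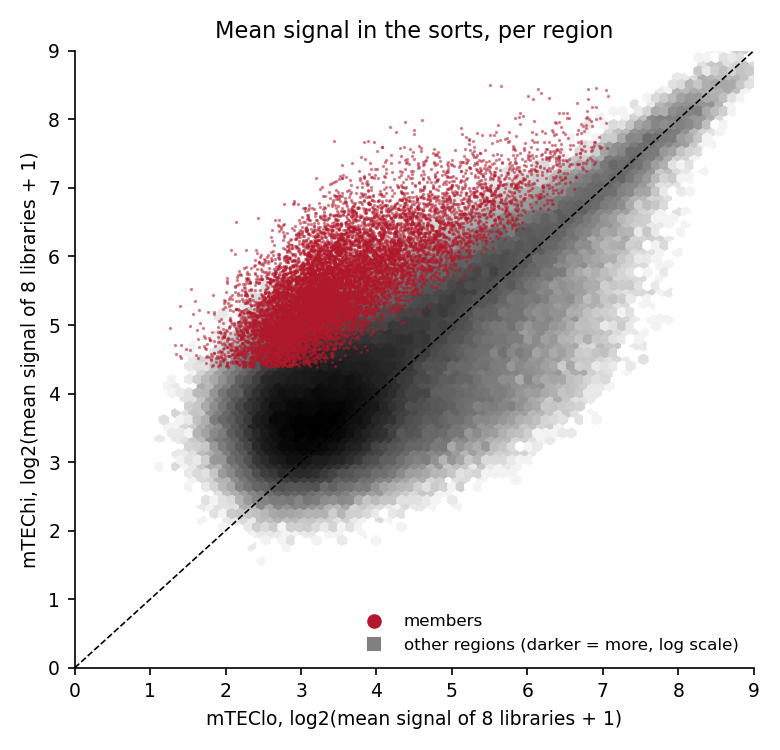
Mean signal of each region over the 8 mTEChi libraries (vertical) and over the 8 mTEClo libraries (horizontal), both as log2(mean + 1), with members as red points, other regions as a gray density and a dashed line where the sorts are equal. The members lie above that line by construction, mostly at low mTEClo signal, with median signals of 47.2 in mTEChi and 9.54 in mTEClo before the log.

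The widest separation of the sorts was on chromosome 4 from 8739487 to 8739986. Signal there was 170.3 to 246.3 over the 8 mTEChi libraries (median 199.8) and 5.01 to 13.3 over the 8 mTEClo libraries (median 9.89), so that the lowest mTEChi value was 12.8 times the highest mTEClo value. The Aire-/- mTEChi libraries had 238.4 and 202.9 and the Aire+/+ mTEChi libraries 185.7 and 170.3, while the Brg1-/- mTEChi libraries had 211.3 and 196.7 and the Brg1+/+ mTEChi libraries 183.6 and 246.3. In the Aire line both knockout libraries were above both wild-type ones, and in the Brg1 line the genotypes overlapped. The other 4 of the 5 widest separations were on chromosome 14 from 57970285 to 57970784 (ratio of means 15.0), chromosome 11 from 79959350 to 79959849 (11.9), chromosome 1 from 108374406 to 108374905 (10.8) and chromosome 11 from 23678768 to 23679267 (11.5). Each of these 5 regions was at 72.9 or more in every mTEChi library and at 33.8 or less in every mTEClo library.

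The strongest member was on chromosome 8 from 45541562 to 45542061, with an mTEChi mean of 360.0 and a ratio of 8.10. The Aire-/- mTEChi libraries had 780.2 and 501.7 and the Aire+/+ mTEChi libraries 335.6 and 280.3. The Brg1-/- mTEChi libraries had 192.4 and 210.5 and the Brg1+/+ mTEChi libraries 305.6 and 273.4. Knockout and wild type did not overlap in either line, with the knockout higher in the Aire line and lower in the Brg1 line. The next 4 by mTEChi mean were on chromosome 8 from 31697926 to 31698425, chromosome 10 from 84757925 to 84758424, chromosome 1 from 193101447 to 193101946 and chromosome 3 from 26430348 to 26430847. Their ratios of means were 7.24, 2.96, 3.16 and 4.98 in that order. Among the 100 members with the highest mTEChi mean, the least open in mTEClo after the chromosome 4 region above were on chromosome 15 from 16496007 to 16496506 (ratio 15.3) and chromosome 16 from 97880715 to 97881214 (ratio 14.7).

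By the conditions, signal was higher in mTEChi at all members in each genotype, so only the size of that difference is described. The median log2 difference, mTEChi minus mTEClo on the log2(signal + 1) scale, was 2.16 in Aire-/- cells and 1.98 in Aire+/+ cells, and 1.95 in Brg1-/- cells and 2.24 in Brg1+/+ cells. Over all regions tested it was 0.096 in Aire-/- and 0.16 in Aire+/+ cells, and 0.62 in Brg1-/- and 0.42 in Brg1+/+ cells. A difference of at least 1 was present at 93.1% of members in Aire-/- cells, 92.2% in Aire+/+ cells, 90.5% in Brg1-/- cells and 94.4% in Brg1+/+ cells. Since the conditions required separation in all 4 genotypes, a region that lost the difference in a knockout could not be a member.

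To test the same measure in libraries that did not choose the regions, the conditions were applied to the 8 libraries of one line and mTEChi was compared with mTEClo in the other line. Regions so chosen had an mTEChi mean of at least 20 in the line that chose them. All regions tested did not have to meet this, so their shares are not set like for like. The conditions chose 27030 regions in the Brg1 line. In the Aire line, limma on log2(signal + 1) with Benjamini-Hochberg adjustment called 14806 of them higher in mTEChi (54.8%; over all regions tested 14.5%) and 16 lower (over all regions 8.81%), with a median log2 difference of 1.35 against 0.13 over all regions. The 28947 regions chosen in the Aire line gave 17289 called higher in mTEChi in the Brg1 line (59.7%; over all regions 18.4%) and 3 called lower (over all regions 4.76%), with a median of 1.52 against 0.53. After quantile normalization of the libraries the last count of higher regions was 9306, while calls over all regions in either direction fell from 52132 to 33331. Across the 8 fits that left out 1 library the counts were 11212 to 15517 in the Aire line and 13065 to 16317 in the Brg1 line.

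Genotype effects at the members were small in the middle of the distribution. Median member signal was 53.6 and 50.8 in the Aire-/- mTEChi libraries and 50.7 and 44.8 in the Aire+/+ mTEChi libraries (52.2 ± 1.95 and 47.7 ± 4.17, SD, n = 2 each). It was 40.0 and 43.4 in the Brg1-/- mTEChi libraries and 43.9 and 46.2 in the Brg1+/+ mTEChi libraries (41.7 ± 2.42 and 45.0 ± 1.66, SD, n = 2 each). Knockout libraries were thus the higher pair in the Aire line, by a narrow margin, and the lower pair in the Brg1 line. The Aire order did not hold on the log2 scale against the median of all regions tested in each library. Members' medians stood 1.47 and 1.58 above it in Aire-/- and 1.53 and 1.11 above it in Aire+/+ mTEChi libraries, which overlapped. In mTEClo the medians of member signal were 9.97 and 10.6 in Aire-/- and 10.5 and 10.4 in Aire+/+ libraries, which overlapped. They were 9.30 and 10.4 in Brg1-/- and 8.60 and 8.10 in Brg1+/+ mTEClo libraries, where both knockout libraries were higher.

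**Figure D2:**
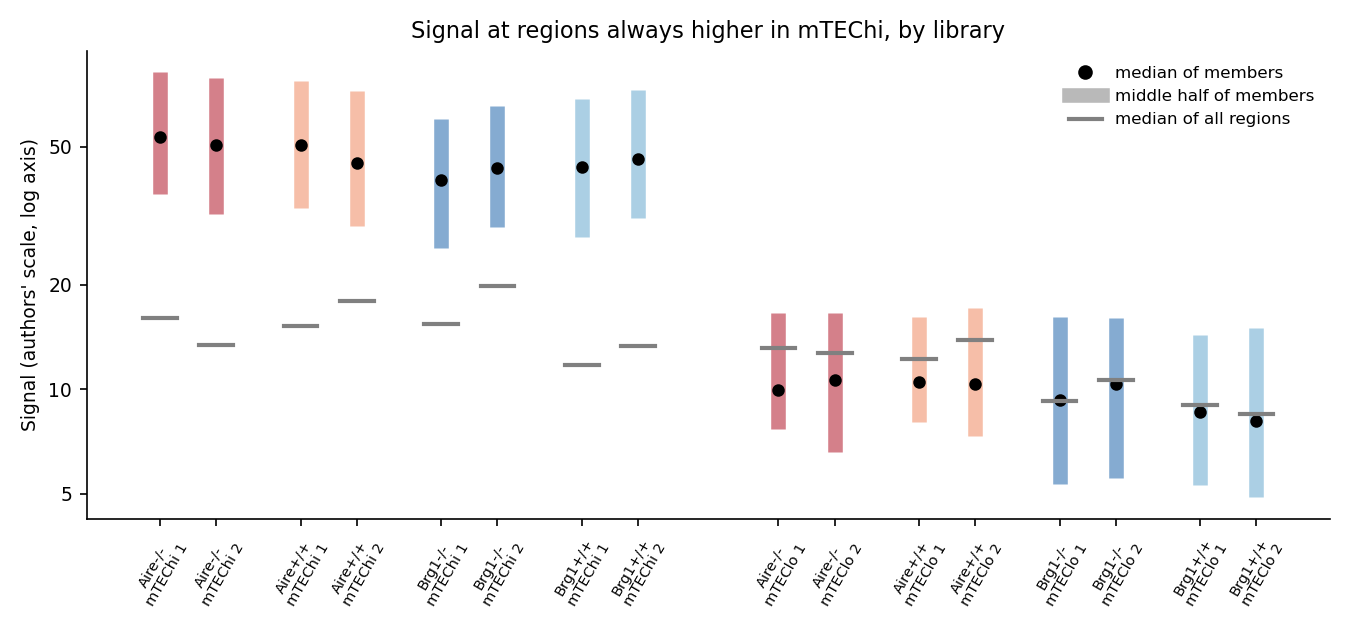
Signal at the 11081 members in each of the 16 libraries, in the authors' units on a log axis, with black points for the median of members, bars between their quartiles and gray lines for the median of all regions. The 8 mTEChi medians lie between 40.0 and 53.6 and the 8 mTEClo medians between 8.10 and 10.6.

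In the comparison of Aire-/- with Aire+/+ mTEChi, no member was called higher (over all regions tested 0.0111%) or lower (0.00977%) by limma with Benjamini-Hochberg adjustment. At an unadjusted p under 0.05, 282 members were higher and 124 lower, which is 3.66% of members against 10.2% of all regions. The conditions held each mTEChi value above all mTEClo values, so those shares are not set like for like. The log2 fold change at the middle member was 0.12, whereas all regions had a median of -0.0015, and it was positive at 58.7% of members against 49.9% of all. Both Aire-/- libraries were above both Aire+/+ libraries at 2872 members (25.9%; over all regions 18.9%) and below them at 1767 (15.9%; over all regions 18.6%). The members' median log2 fold change minus that of all regions was 0.12 as deposited. It was 0.10 after quantile normalization and 0.055 after cyclic loess normalization. The 82916 regions that met both level conditions without separating the sorts had a median of 0.13. With the members split into 4 classes of equal size by mean signal, from the lowest to the highest, their medians were 0.15, 0.17, 0.12 and 0.074, against 0.0050, 0.12, 0.14 and 0.041 for other regions in the same ranges, so they lay above the other regions in all classes but the third. Leaving out the second Aire+/+ mTEChi library brought the members' median to 0.050, and leaving out the first gave 4 called members, 3 higher and 1 lower, among 2243 regions called in all.

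None of the following single members passed the adjusted threshold, and they are those with the smallest unadjusted p. On chromosome 10 from 77604384 to 77604883, signal was 90.3 and 155.1 in Aire-/- mTEChi and 25.8 and 17.1 in Aire+/+ mTEChi, a log2 fold change of 2.44 (SE 0.70; limma adjusted p = 0.215). The strongest member, on chromosome 8 from 45541562 to 45542061, had a log2 fold change of 1.03 (SE 0.28; limma adjusted p = 0.182). In the other direction, the region on chromosome 8 from 94053561 to 94054060 had 68.5 and 65.7 in Aire-/- mTEChi and 186.1 and 156.6 in Aire+/+ mTEChi, a log2 fold change of -1.33 (SE 0.32; limma adjusted p = 0.129). There the Aire-/- libraries were the lowest of all 8 mTEChi libraries, and the 4 Brg1-line mTEChi libraries had 116.9 to 174.6. The region on chromosome 3 from 100814493 to 100814992 had a log2 fold change of -1.32 (SE 0.37; limma adjusted p = 0.194).

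In mTEClo, the comparison of Aire-/- with Aire+/+ called no member, and no region at all, higher or lower (0% of all regions in each direction, limma with Benjamini-Hochberg adjustment). At an unadjusted p under 0.05, 337 members were higher and 384 lower (6.51% of members against 2.50% of all regions). At 3558 members (32.1%) the mTEClo mean was under the filter on mean signal of 7.48, so these were tested only through their mTEChi signal, and counts and medians of members in mTEClo are not set like for like against those of all regions. At the members the log2 fold change had a median of -0.036, against 0.00045 over all regions. Both knockout libraries were above both wild-type libraries at 1738 members (15.7%; over all regions 16.8%) and below them at 2141 (19.3%; over all regions 17.1%). Calls depended on single libraries: without the first Aire+/+ mTEClo library 8 members were called higher, among 25 regions called in all, and without the first Aire-/- mTEClo library 4 members were called lower, among 5 in all. The median log2 fold change was 0.012 without that Aire-/- library and -0.0050 without the other one, and -0.10 without that Aire+/+ library and -0.057 without the other one. The members with the smallest unadjusted p were at low and at moderate levels. On chromosome 1 from 133958622 to 133959121 signal was 11.1 and 11.0 in Aire-/- mTEClo and 0.832 and 0.509 in Aire+/+ mTEClo, a log2 fold change of 2.86 (SE 0.65; limma adjusted p = 1.00). On chromosome 17 from 30707069 to 30707568 the values were 1.80 and 0.450 in Aire-/- mTEClo and 12.5 and 15.8 in Aire+/+ mTEClo, a log2 fold change of -2.90 (SE 0.60; limma adjusted p = 1.00). At moderate levels, chromosome 4 from 15408615 to 15409114 had 57.0 and 68.7 in Aire-/- mTEClo and 25.4 and 16.3 in Aire+/+ mTEClo, and chromosome 2 from 132749373 to 132749872 had 14.2 and 13.2 in Aire-/- mTEClo and 43.4 and 60.7 in Aire+/+ mTEClo, neither of them called.

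Loss of Brg1 in mTEChi went with lower signal at the members relative to other regions. No member was called higher (over all regions 0.0146%) or lower (0.0111%) by limma with Benjamini-Hochberg adjustment. At an unadjusted p under 0.05, 53 members were higher and 228 lower (2.54% of members against 10.7% of all regions, with the same limit from the conditions). The median log2 fold change, Brg1-/- minus Brg1+/+, was -0.13 at the members and 0.22 over all regions, a difference of -0.35. It was negative at most members, being positive at 40.0% of them against 61.4% of all regions. Both Brg1-/- libraries were below both Brg1+/+ libraries at 2686 members (24.2%; over all regions 11.7%) and above them at 1350 (12.2%; over all regions 24.8%). Regions that met the level conditions without separating the sorts had a median of 0.11, and mTEClo regions had 0.068.

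Scaling set the level of these Brg1 medians but not their order. The Brg1-/- mTEChi libraries had higher medians over all regions, 15.4 and 19.8, than the Brg1+/+ mTEChi libraries, 11.8 and 13.3. Set against the median of its own library on the log2 scale, the members' median stood 1.10 ± 0.15 above it in Brg1-/- mTEChi and 1.58 ± 0.05 above it in Brg1+/+ mTEChi (SD, n = 2 each). The members' median log2 fold change minus that of all regions was -0.26 after quantile normalization and -0.28 after cyclic loess normalization. All regions moved to medians of -0.0023 and -0.016 there. Re-centring shifts each library by a constant, so it could not change the deposited difference of -0.35, and all regions moved to a median of -0.16. The members' own median was -0.056 without the first Brg1-/- mTEChi library and -0.085 without the second Brg1+/+ mTEChi library. What the scale of single libraries contributes to the result was not tested.

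The Brg1 difference was found at each level of signal. With the members split into 4 classes of equal size by mean signal over all libraries, from the lowest to the highest, the median log2 fold change of Brg1-/- minus Brg1+/+ mTEChi was -0.011, -0.081, -0.17 and -0.19 at the members. Other regions in the same ranges of mean signal had 0.31, 0.20, 0.16 and 0.047. Members lay below other regions in each class, and the share of members with a positive value was 49.0% in the lowest class and 30.0% in the highest. The regions chosen by the conditions in the Aire line alone, which used no Brg1-line library, had a median of -0.093, with 5 of 28947 called (0.0173%, against 0.0257% of all regions tested).

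**Figure D3:**
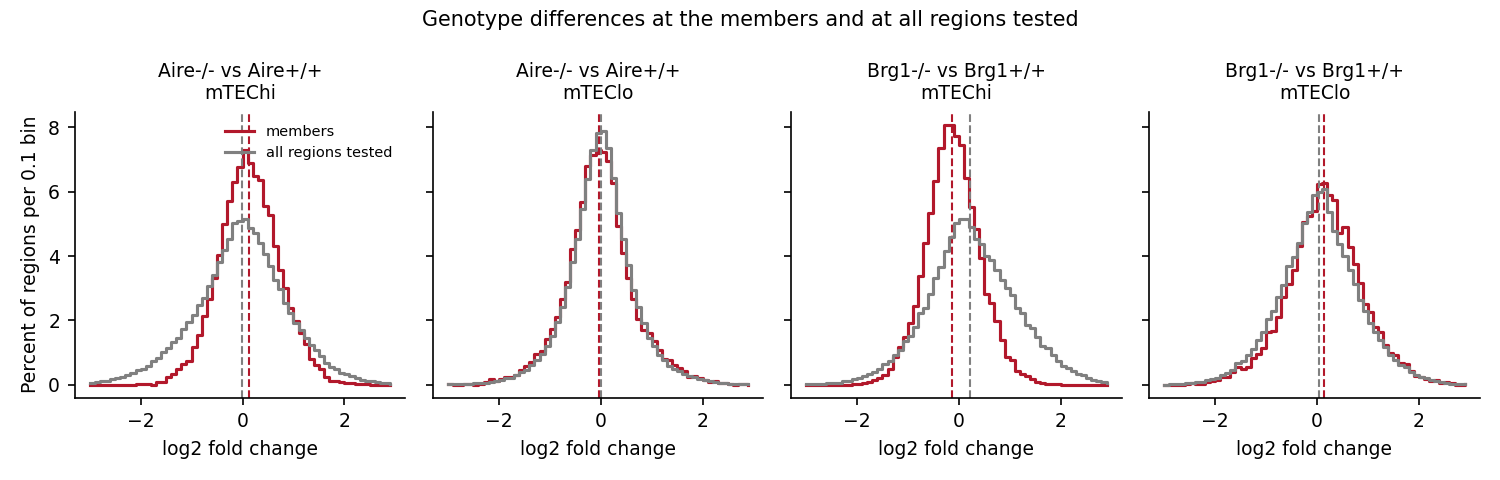
Distribution of the log2 fold change, knockout minus wild type, at members (red) and at all regions tested (gray), as the percent of regions per bin of 0.1, with dashed lines at the medians, for each line and sort. In mTEChi the members' median is 0.12 for Aire and -0.13 for Brg1, against -0.0015 and 0.22 over all regions.

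The members with the smallest unadjusted p for Brg1 in mTEChi were not called. On chromosome 19 from 5815898 to 5816397, signal was 50.5 and 98.6 in Brg1-/- mTEChi and 213.9 and 173.2 in Brg1+/+ mTEChi, a log2 fold change of -1.43 (SE 0.35; limma adjusted p = 0.137). The region on chromosome 5 from 31569945 to 31570444 had 25.4 and 20.1 in Brg1-/- mTEChi and 124.9 and 62.8 in Brg1+/+ mTEChi, a log2 fold change of -1.92 (SE 0.53; limma adjusted p = 0.189). At both, the Brg1-/- libraries were the lowest 2 of the 8 mTEChi libraries. In the other direction, chromosome 19 from 41105466 to 41105965 had 52.5 and 57.2 in Brg1-/- mTEChi and 11.1 and 11.9 in Brg1+/+ mTEChi, a log2 fold change of 2.16 (SE 0.76; limma adjusted p = 0.299). Chromosome 4 from 139704343 to 139704842 had 45.9 and 59.9 in Brg1-/- mTEChi and 12.4 and 13.7 in Brg1+/+ mTEChi, a log2 fold change of 1.93 (SE 0.65; limma adjusted p = 0.279). At both of these, signal was 27.2 or less in each mTEChi library other than the Brg1-/- ones.

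In mTEClo, Brg1-/- minus Brg1+/+ had a median log2 fold change of 0.15 at the members, against 0.048 over all regions. That median was 0.077 without the second Brg1+/+ mTEClo library, 0.23 without the first Brg1-/- mTEClo library and 0.043 after re-centring. No member was called higher (over all regions 0%) or lower (0.000444%) by limma with Benjamini-Hochberg adjustment. At an unadjusted p under 0.05, 714 members were higher and 360 lower (9.69% of members against 6.15% of all regions), with the same limit on low mTEClo signal. Both Brg1-/- libraries were above both Brg1+/+ libraries at 2587 members (23.3%; over all regions 20.6%) and below them at 1448 (13.1%; over all regions 18.4%). The mTEClo regions had a median of -0.31 in the same comparison. The member with the smallest unadjusted p, on chromosome 16 from 57569080 to 57569579, had signal of 36.6 and 39.4 in Brg1-/- mTEClo and 5.28 and 9.47 in Brg1+/+ mTEClo, a log2 fold change of 2.26 (SE 0.41; limma adjusted p = 0.144). In the opposite direction, chromosome 12 from 36913661 to 36914160 had 0.513 and 0.413 in Brg1-/- mTEClo and 9.76 and 12.5 in Brg1+/+ mTEClo, a log2 fold change of -3.04 (SE 0.61; limma adjusted p = 0.237).

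Whether a genotype changed the difference between the sorts was tested as an interaction, which called no member for either line by limma with Benjamini-Hochberg adjustment. For Aire the calls over all regions were 0% higher and 0.000444% lower, and 309 members were higher and 143 lower at an unadjusted p under 0.05 (4.08% of members against 5.15% of all regions). For Brg1 the calls over all regions were 0% in each direction, and 109 members were higher and 523 lower at that level (5.70% of members against 7.09% of all regions). The median interaction at the members was 0.15 for Aire, against -0.010 over all regions, and -0.26 for Brg1, against 0.17 over all regions. Without the second Aire+/+ mTEChi library the Aire median was 0.086. For Brg1 the members' median minus that of all regions was -0.43 as deposited, -0.32 after quantile normalization and -0.43 after cyclic loess normalization. The mTEClo regions had a median Brg1 interaction of 0.37, of the opposite sign to that of the members, so both medians lay on the side of a smaller difference between the sorts in Brg1-/- cells. The smallest limma adjusted p at a member was 0.959 for Aire and 0.387 for Brg1. The member with the smallest unadjusted p for the Brg1 interaction was on chromosome 14 from 105636768 to 105637267. Its signal was 23.9 and 21.4 in Brg1-/- mTEChi and 72.9 and 75.4 in Brg1+/+ mTEChi, against 12.8 and 3.80 in Brg1-/- mTEClo and 0.366 and 0.628 in Brg1+/+ mTEClo.

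Log2 fold changes of individual members were spread around these medians. A log2 fold change of at least 1 in size was present at 831 members upward and 301 downward for Aire in mTEChi, and at 246 upward and 543 downward for Brg1 in mTEChi. In mTEClo the counts were 763 upward and 738 downward for Aire, and 1302 upward and 654 downward for Brg1. For Aire in mTEChi, 7.50% of members were past that size upward and 2.72% downward, against 12.0% and 13.6% of all regions. For Brg1 in mTEChi the shares were 2.22% of members upward and 4.90% downward, against 19.5% and 7.17% of all regions. In mTEClo they were 6.89% of members upward and 6.66% downward for Aire, against 6.02% and 5.70% of all regions, and 11.7% upward and 5.90% downward for Brg1, against 10.7% and 8.54%. The median SE of such a log2 fold change was 0.62 at the members and 0.74 over all regions, so a change of 1 in a single member is less than 2 SEs at the median SE. The median size of the change at the members was below 0.62 in each comparison. It was 0.39 for Aire and 0.35 for Brg1 in mTEChi, and 0.38 for Aire and 0.47 for Brg1 in mTEClo. How much of the spread is difference between regions was not tested. The conditions held each mTEChi value above all mTEClo values, which limits how far it could fall.

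In mTEChi, libraries without Brg1 most often set the edge of the separation. The lowest of the 8 mTEChi values came from the first Brg1-/- library at 2516 members (22.7%; over all regions tested 13.4%) and from the second at 1738 (15.7%; over all regions 9.84%). It came from the first Aire-/- library at 648 members (5.85%; over all regions 10.2%). By group means in mTEChi, Aire-/- was the highest of the 4 genotypes at 4646 members (41.9%; over all regions 25.3%), and Brg1-/- was the lowest at 4508 (40.7%; over all regions 21.1%). In mTEClo the highest value came most often from the second Aire+/+ library, at 2230 members (20.1%; over all regions 23.3%), and next from the second Aire-/- library, at 1879 (17.0%; over all regions 21.7%). Since leaving out a library relaxes the conditions, the number of regions that met them without 1 library ran from 11378 to 13655, the last without the first Brg1-/- mTEChi library.

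Between the wild types of the lines, the median difference at the members was small as deposited and changed sign with scaling. Aire+/+ minus Brg1+/+ mTEChi had a median log2 fold change of 0.074 at the members and 0.18 over all regions. No member was called higher (over all regions 0.0653%) or lower (0.091%) by limma with Benjamini-Hochberg adjustment, with 153 higher and 73 lower at an unadjusted p under 0.05 (2.04% of members against 10.5% of all regions). The conditions held each mTEChi value above all mTEClo values, so these shares are not set like for like. The sign of the members' median depended on scaling, being -0.052 after quantile normalization, -0.029 after cyclic loess normalization and -0.27 after re-centring. Its size depended on single libraries, being 0.018 without the first Aire+/+ library, 0.020 without the first Brg1+/+ library and 0.15 without the second Aire+/+ library.

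Members lay on every autosome and were rare on chromosome X. They made up 3.87% of regions on chromosome 3 to 5.84% on chromosome 11, where 1038 of 17762 regions were members, and 5.14% on chromosome 19. On chromosome X they were 60 of 4214 regions, or 1.42%. The mTEClo regions were rare there too, at 36 regions (0.854%), against 1.24% to 2.08% on the autosomes. Chromosome X regions were less open in mTEChi, with a median mTEChi mean of 13.3 against 16.1 on autosomes, and among regions that met the level conditions the members' share was still 4.81% on chromosome X against 10.3% to 14.2% on the autosomes. The 60 members on chromosome X had a median mTEChi mean of 42.0 and a median ratio of 5.12, against 47.2 and 4.61 for the 11021 on autosomes.

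**Figure D4:**
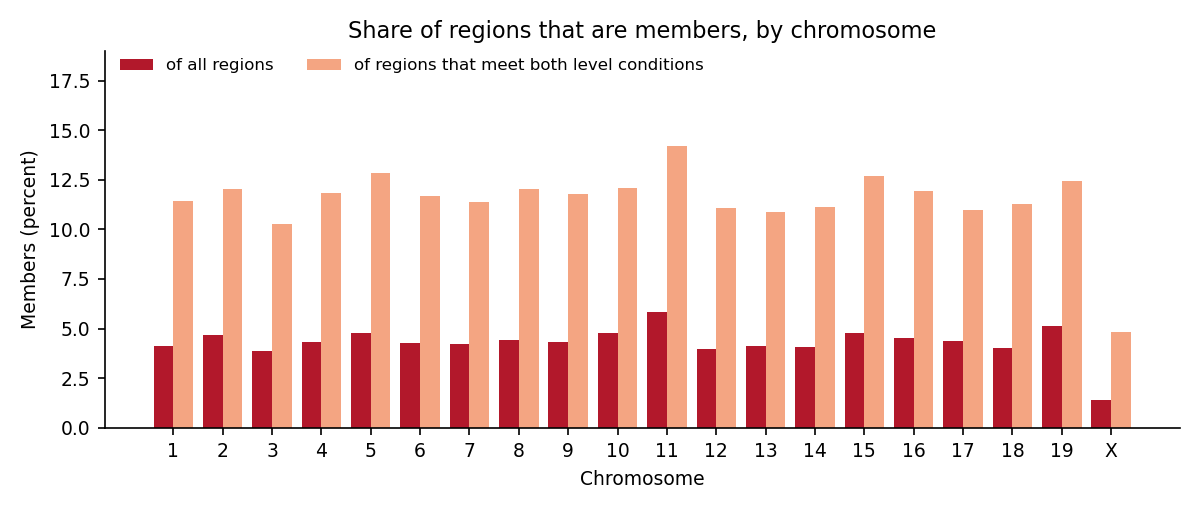
Members on each chromosome as a percent of all its regions (dark bars) and of its regions that met both level conditions (light bars). The dark bars lie between 3.87% and 5.84% on the autosomes, with chromosome 11 the highest, and at 1.42% on chromosome X, where the light bar is at 4.81%.

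Members lay close to one another. The median distance from a member to the nearest other member was 21105 bp, against 61756 bp from other regions to the nearest member and 42793 bp from the regions that met the level conditions only. Another member lay within 50 kb of 7516 members (67.8%), against 46.0% of all regions and 53.8% of regions that met the level conditions only. Within 10 kb the shares were 35.6% of members and 16.7% of all regions. Members sat in somewhat denser stretches, with a median of 21 other regions within 50 kb. The median was 17 for all regions and 19 for regions that met the level conditions only. With these neighbours pooled, 8.42% were members around members and 5.30% around all regions. Around regions that met the level conditions only, the pooled share was 5.85%. A region of the mTEClo kind lay within 50 kb of 20.1% of members, against 23.3% of all regions. Among the 4089 mTEClo regions, 40.2% had another of their kind within 50 kb, against those 23.3% of all regions. Within 10 kb the shares were 18.0% of mTEClo regions and 7.01% of all regions. Closeness to others of the same kind was thus not particular to the members. No test was run on these shares, since neighbouring regions are not independent.

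Joining members whose starts were at most 50 kb apart gave 5778 runs. Of the members, 3565 stood alone, 4583 were in runs of 2 to 4, 2119 in runs of 5 to 9 and 814 in 64 runs of 10 or more. Signal was somewhat higher in longer runs while the ratio was not: the median mTEChi mean was 44.3 for members alone and 51.4 for those in runs of 10 or more, with median ratios of 4.70 and 4.51. The Brg1-/- minus Brg1+/+ mTEChi median was -0.12 for members alone and -0.13 in runs of 10 or more.

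The run with the most members lay on chromosome 8 from 123141980 to 123333314, where 22 of 98 regions in 191.3 kb were members. Their median signal by group was 74.3 in Aire-/- and 55.8 in Aire+/+ mTEChi, and 46.7 in Brg1-/- and 60.9 in Brg1+/+ mTEChi. In mTEClo the group medians were 8.49 to 13.5, far below each mTEChi group. The other 76 regions of the stretch were not members, yet 69 of them had higher mean log2 signal in mTEChi, with a median log2 difference of 1.07. The median log2 fold change of the 22 members was 0.42 for Aire-/- minus Aire+/+ mTEChi and -0.23 for Brg1-/- minus Brg1+/+ mTEChi.

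The next longest runs were on chromosome 16 from 10565542 to 10788988, with 19 members of 96 regions in 223.4 kb, and on chromosome 2 from 167104564 to 167363307, with 18 members of 83 regions in 258.7 kb. In the chromosome 16 run, group medians were 44.1 in Aire-/- and 43.6 in Aire+/+ mTEChi, and 31.1 in Brg1-/- and 37.0 in Brg1+/+ mTEChi. In the chromosome 2 run they were 65.6 in Aire-/- and 61.1 in Aire+/+ mTEChi, and 46.8 in Brg1-/- and 45.7 in Brg1+/+ mTEChi. Here too most regions that were not members leaned toward mTEChi, 64 of 77 on chromosome 16 and 50 of 65 on chromosome 2.

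Regions near members leaned toward mTEChi without being members. The median log2 difference of mTEChi minus mTEClo was 0.74 at the 8603 other regions within 2 kb of a member, of which 81.0% had a positive value. It was 0.52 between 2 and 5 kb, 0.45 between 5 and 10 kb, 0.37 between 10 and 20 kb and 0.30 between 20 and 50 kb. Beyond 500 kb it was 0.085, with 54.3% positive, and over all regions that were not members it was 0.28, with 63.6% positive. Both sorts changed over the first 50 kb: the median mTEChi mean was 21.5 within 2 kb and 18.0 between 20 and 50 kb, while the median mTEClo mean was 10.9 within 2 kb and 12.9 between 20 and 50 kb. Beyond 500 kb the medians were 13.4 in mTEChi and 11.9 in mTEClo. These values describe the same libraries that chose the members.

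**Figure D5:**
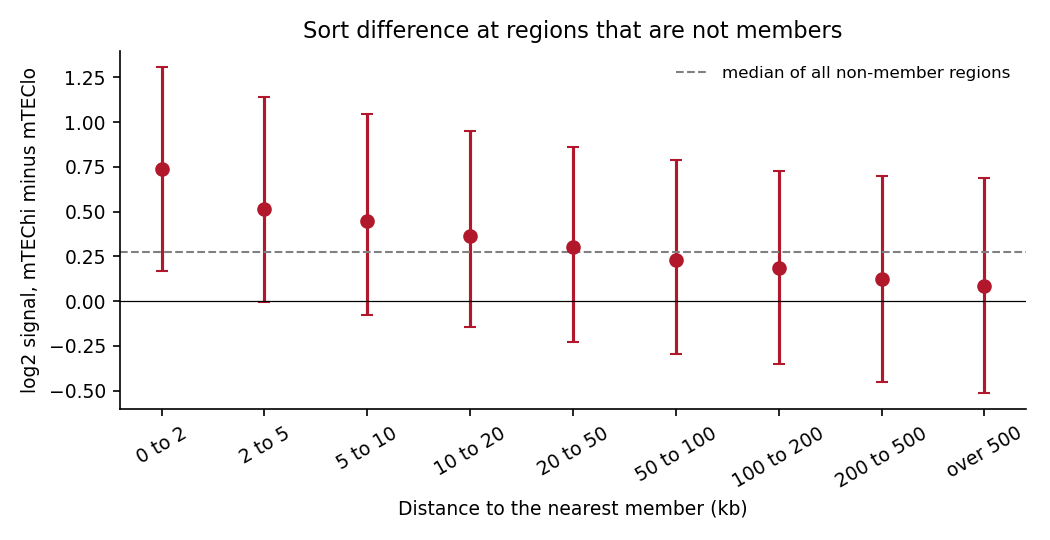
Median log2 difference of mTEChi minus mTEClo at regions that were not members, by distance to the nearest member in kb; points are medians, bars run between quartiles and the dashed line is the median of all such regions, 0.28. The median is 0.74 within 2 kb and 0.085 beyond 500 kb.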

How the data were processed

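Normalized signal at 250313 regions was deposited by the authors as 1 table, whose 16 columns each carried the description of 1 library. The submitters' processing notes name Bowtie2, MACS2 and mm9 and give no versions. The definition of regions, the shift of reads for Tn5 and the scaling of libraries are not given in the sources used here. Signal values were not whole counts, so no count model was used.

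The members, the tests and the lists were chosen with earlier results of these data known. Signal was analysed as log2(signal + 1), which understates the change of low regions. Regions under the 10th percentile of mean signal (7.48) were left out, which kept 225281; all 11081 members passed, as their conditions guarantee. limma 3.58.1 in R 4.3.3 fitted 8 group means over 16 libraries, with 8 residual degrees of freedom, trend and robust moderation. Calls had a two-sided Benjamini-Hochberg adjusted p under 0.05 over all regions tested, in each of 7 contrasts, and "called" has this meaning throughout. Fits in one line used its 8 libraries alone. The procedure was tested on simulated data. Named regions are the 5 widest separations, the 5 highest mTEChi means, the 3 least open in mTEClo among the 100 strongest, the 2 smallest unadjusted p per contrast and direction where none was called, the 3 longest runs and those next to a threshold; the text gives a subset. Starts were taken as counted from 0 in the deposited table and are printed counted from 1. Re-centring gave all libraries the same median log2 signal. Alternatives changed the pseudocount, the filter, the scaling, the libraries fitted, the replicate block, quality weights, the thresholds of the conditions and the window for neighbours, or left out 1 library at a time.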

Additional observations from a re-analysis of the deposited data

Results flagged for a closer look

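For Brg1 the median signal of the members moved in opposite directions in the sorts, in every library: both Brg1-/- mTEChi libraries (40.0 and 43.4) were below both Brg1+/+ mTEChi libraries (43.9 and 46.2), and both Brg1-/- mTEClo libraries (9.30 and 10.4) were above both Brg1+/+ mTEClo libraries (8.60 and 8.10). Over all regions the Brg1-/- mTEClo libraries were also the higher pair, with medians of 9.23 and 10.6 against 9.01 and 8.51 in Brg1+/+ mTEClo. After re-centring, the members' median log2 fold change in mTEClo was 0.043. The median interaction over the members was -0.26 on the log2 scale, against 0.17 over all regions. This difference between the medians was not tested, and region by region the interaction called no member by limma, with 109 members higher and 523 lower at an unadjusted p under 0.05. With groups of 2 libraries, no group was large enough for a check of single outlying libraries.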

How the results depend on the processing

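The number of members was 5049 with a minimum mTEChi mean of 50, 4386 where the lowest mTEChi value had to be 1.5 times the highest mTEClo value, 5767 after quantile normalization (5697 of them members as reported) and 4853 after scaling to equal medians (4794 of them members as reported). The members' median log2 fold change under quantile, cyclic loess and re-centring was -0.26, -0.29 and -0.51 for Brg1 in mTEChi, -0.34, -0.42 and -0.54 for the Brg1 interaction, and -0.052, -0.029 and -0.27 for the wild types. For Brg1 in mTEClo it was 0.043 after re-centring. Of 117 alternatives for the counts of called members, 111 gave 0. Re-centring called 1 member for Brg1 in mTEChi, among 137 regions called in all. Quality weights called 1 member for Aire in mTEClo and 1 for Brg1 in mTEClo, each among 12 regions called in all. Leaving out each library in turn gave 0 to 4 calls for Aire in mTEChi and 0 to 8 for Aire in mTEClo, medians of -0.10 to 0.012 for Aire in mTEClo and of -0.18 to -0.056 for Brg1 in mTEChi. A library left alone in its group was assumed to vary like the others. Of 110 alternatives for the medians, 106 kept their sign; the exceptions were the wild types under the 3 scalings and Aire in mTEClo without the first Aire-/- library. After quantile normalization, 9306 of the regions chosen in the Aire line were called higher in mTEChi in the Brg1 line. Over all regions 33331 were called there in either direction. The share of members with a neighbouring member was 35.6% within 10 kb in place of 50 kb. The cause of these changes was not tested.

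Replicate numbers showed no sign of pairing the libraries: differences between the libraries of a group correlated at -0.018 to 0.034 over 28 pairs of groups. The labels do not say how replicates were made, and low correlations of such coarse values cannot exclude pairing. With the replicate number as a block, 0 members were called in each of the 7 contrasts and the medians were the same (0.12 for Aire and -0.13 for Brg1 in mTEChi). The counts in the Aire and Brg1 lines were 14878 and 17466, where 52968 and 53039 of all regions were called in either direction. Depth is unknown, so counting error could not be set beside any value. In mTEClo, 17.4% to 27.2% of members per library took 1 of the 10 commonest values of that library, so differences between low values there are coarse.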
